A study of Gallus gallus with 5 samples.

Results

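HOX genes encode homeodomain transcription factors. A locus was taken as a HOX locus where its symbol in the count file or the RPKM file is HOX, a cluster letter A to D and a number. The rule found 44 loci out of 18365 with a count and 18581 with an RPKM (reads scaled to transcript length and library depth), and the 43 of them in paralogue groups 2 to 13 are described here. All 43 have a HOX symbol in both files, and they carry 31 different symbols. The A cluster holds 10 of these symbols on 22 loci, the B cluster 8 symbols on 8 loci, the C cluster 5 on 5 and the D cluster 8 on 8. Sums, shares and counts of HOX loci below are over these loci.

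In vertebrates the HOX genes stand in 4 clusters, and genes at the same place in different clusters form a paralogue group. Groups with low numbers are expressed up to a more anterior limit of the body axis and begin earlier than groups with high numbers, so the set of groups that a tissue expresses serves as a readout of its axial position. The otic placode, the thickening of head ectoderm that becomes the inner ear, forms beside the hindbrain, where genes of the low-numbered groups have their anterior limits. HOX proteins bind DNA with cofactors of the PBX and MEIS families. The first HOX genes of the hindbrain are direct targets of retinoic acid.

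PolyA RNA of untreated chick embryos (Bovans Brown breed) was sequenced, with 1 library for each of 5 conditions: whole embryo at the 3 somite stage (3ss), posterior pre-placodal region (PPR) at stage HH6, otic-epibranchial progenitors (OEPs) at 5-6ss, thickened otic placode at 8-9ss and invaginating otic placode at 11-12ss. Each otic library is ectoderm pooled from many embryos, cut out level with the future otic region, with mesoderm and endoderm taken off by dispase. The whole embryo library, by contrast, holds all regions and germ layers of the embryo at its own stage in 1 sample. Differences of region, tissue and stage therefore cannot be told apart in a comparison with it. No condition has a replicate, so no p-value was computed and each interval covers counting error only, in reads whose PCR copies were not told apart. The paper gives a shorter single-read and a longer paired-read run type and does not say which library had which. Where they differed, run type and condition cannot be told apart.

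The libraries held 26858887 (OEPs) to 136916870 (PPR) counts. A count of 0 allows up to 3 counts, or a CPM (counts scaled to the library total) of 0.0219 in PPR and 0.112 in OEPs. Normalized counts below were divided by size factors over the 5 libraries. Of 14 placode marker genes with a locus, 13 were higher in OEPs than in whole embryo under the call rule given below, where 13.9% of all expressed loci were. In PPR, of 11 tested, 7 were higher than whole embryo (background 15.7%) and 1, PAX2, was lower (12.9%). The posterior mesoderm genes TBX6 and MSGN1 had 12018 and 2805 counts in whole embryo, but 5 and 4 in OEPs, 9 and 0 at 8-9ss, and 7 and 0 at 11-12ss. Of 5 paraxial mesoderm genes tested, 4 were called lower in OEPs than in whole embryo, where 10.2% of expressed loci were. These 4, TBX6, TCF15, PAX1 and MSGN1, passed the expression levels of that rule in whole embryo alone. They could therefore only come out lower, and nothing is read from their number. FOXC2 was not called lower, with 2284 normalized counts in whole embryo, 1560 in OEPs, 1608 at 8-9ss and 1493 at 11-12ss. PAX1 and TBX18 had 422 and 223 in whole embryo, and 490 and 282 at 11-12ss.

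Several loci need care. HOXA5, HOXA6, HOXA7, HOXA9 and HOXA13 stand on 3 loci each and HOXA4 and HOXA10 on 2, with like or identical counts. The HOXA13 loci, for example, all had 59 counts in whole embryo and 8 in PPR. In whole embryo 13 loci with at least 3 counts had an RPKM of 0, most of them such copies. Reads may have been counted on more than 1 locus, so each symbol is described below by its locus with the most counts and copies were not added up for its counts. The libraries were made with a kit that does not keep the strand, so HOX genes and antisense transcripts of the clusters cannot be told apart. The RefSeq annotation of GRCg7b draws HOXA3 across the whole of HOXA4, HOXA5 and HOXA6, HOXB3 across HOXB4, HOXB5 and HOXB6, and HOXD3 across HOXD4, so reads of these neighbours may be shared.

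HOX expression was broad in whole embryo and lay mostly in paralogue groups 2 and 3, above all in HOXA2, in the otic libraries. With 1 locus per symbol, the HOX genes took a CPM of 371.9 in whole embryo, 6.31 in PPR, 25.6 in OEPs, 28.2 at 8-9ss and 47.6 at 11-12ss. Of the 31 symbols, 19 had at least 10 counts in whole embryo, against 10 in PPR, 5 in OEPs, 9 at 8-9ss and 9 at 11-12ss. This cutoff is on raw counts, and PPR is the deepest library and OEPs the shallowest. The numbers for PPR and OEPs are therefore not compared. Of the 23 symbols with any read, 20 had their highest normalized count in whole embryo, and the share over all loci is not given here. The others are HOXC9, HOXA11 and HOXC11, whose counts never exceeded 16. HOXA6, HOXB6, HOXD8, HOXB9, HOXD9 and HOXD10 had reads in whole embryo alone and so had to be highest there. Both thresholds for expression (RPKM over 4 and normalized count over 300) were passed by 12 loci in whole embryo, by 0 in PPR on the scaling over 5 libraries, and by HOXA2 alone in OEPs, at 8-9ss and at 11-12ss.

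**Figure D1:**
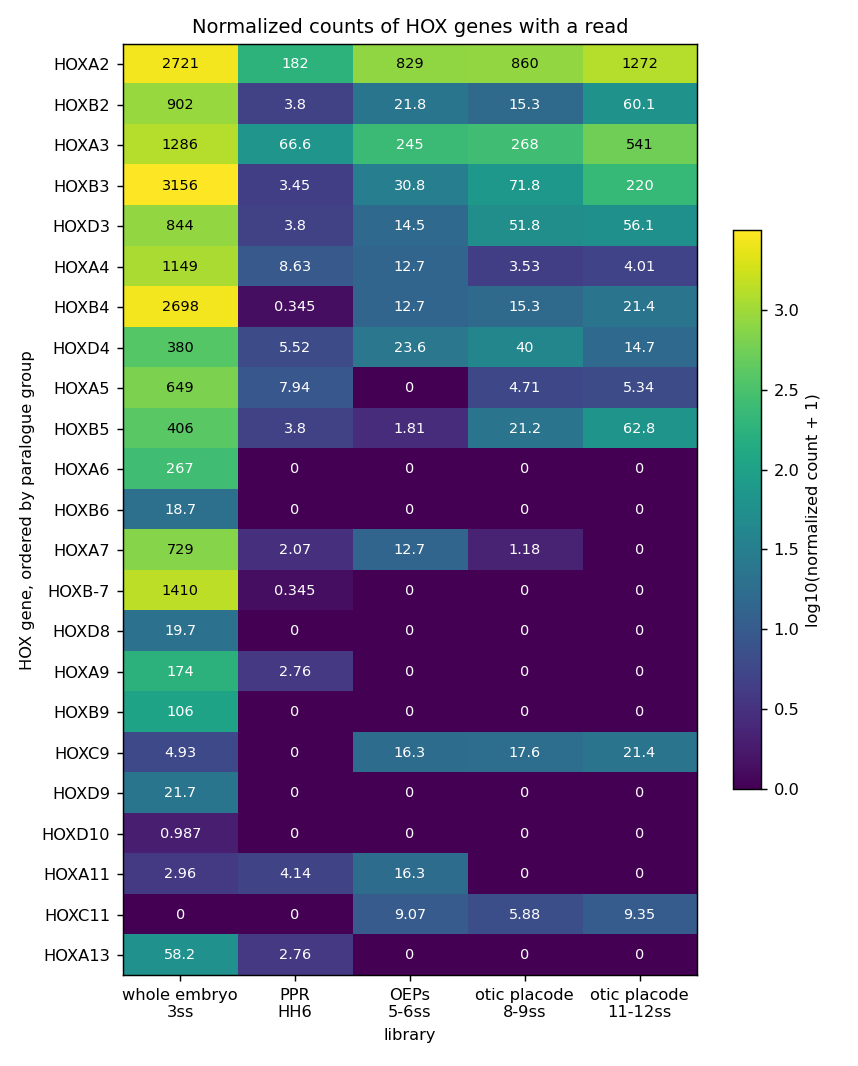
Normalized counts (read counts divided by size factors over 5 libraries) of the 23 HOX genes with a read, 1 locus per symbol, as numbers in each cell and as colour on a log10(normalized count + 1) scale; rows follow the paralogue groups and columns are the 5 libraries. Values above 300 in the 4 ectoderm libraries occur only for HOXA2, from OEPs on, and, at 11-12ss, for HOXA3 (541).

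The make-up by paralogue group was measured on deposited RPKM, which is scaled to transcript length so that levels of different genes can be set side by side. For some genes it does not follow the counts. In whole embryo HOXA6 had 271 counts and an RPKM of 0.24, and HOXA13 had 59 counts and an RPKM of 0. Group 2 made up 84.96% of the summed HOX RPKM in PPR, 81.5% in OEPs, 81.4% at 8-9ss and 74.3% at 11-12ss. Over the same libraries group 3 made up 6.72%, 8.07%, 8.07% and 14.7%. Invaginating placode therefore had the smallest group 2 share and the largest group 3 share of the ectoderm. Group 4 made up 4.53% in PPR, 9.01% in OEPs, 7.90% at 8-9ss and 6.95% at 11-12ss. In OEPs group 4 thus exceeded group 3 by RPKM, whereas by counts of 1 locus per symbol it had 27 against 160. The RPKM-weighted mean paralogue group was 2.30 in PPR, 2.35 in OEPs, 2.35 at 8-9ss and 2.46 at 11-12ss, against 3.88 in whole embryo. By raw counts of 1 locus per symbol, a setting added after the data were seen, the order among the ectoderm libraries turned, with a mean group of 2.80 in PPR, 2.64 in OEPs, 2.56 at 8-9ss and 2.58 at 11-12ss against 3.86 in whole embryo, so no order by stage is read from it.

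Groups 2 and 3 together held 91.7% of the HOX RPKM in PPR, 89.6% in OEPs, 89.5% at 8-9ss and 88.99% at 11-12ss, but 26.8% in whole embryo. By raw counts of 1 locus per symbol the shares were 87.15% (exact 95% interval 84.7 to 89.3), 91.6% (89.2 to 93.5), 92.05% (90.35 to 93.5) and 93.9% (92.7 to 95.01), against 52.4% (51.6 to 53.1) in whole embryo. The ectoderm libraries stood apart from whole embryo on both measures, while their order among themselves was opposite. In RPKM the whole embryo value rests strongly on HOXB4, the highest of these loci in that library at an RPKM of 344, and without it groups 2 and 3 held 64.2% there. Its 2735 counts correspond to only 171 bases of transcript per unit of RPKM, where HOXA2 corresponds to 707, HOXB5 to 1013 and HOXB3 to 2260. The RPKM of HOXB4 may therefore not be comparable with that of other HOX genes, and its counts are used below. HOXA6 corresponds to 24310 bases in whole embryo, and HOXB3 ran from 1030 in OEPs to 3114 in PPR. The RPKM shares and mean groups are thus uncertain beyond HOXB4.

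**Figure D2:**
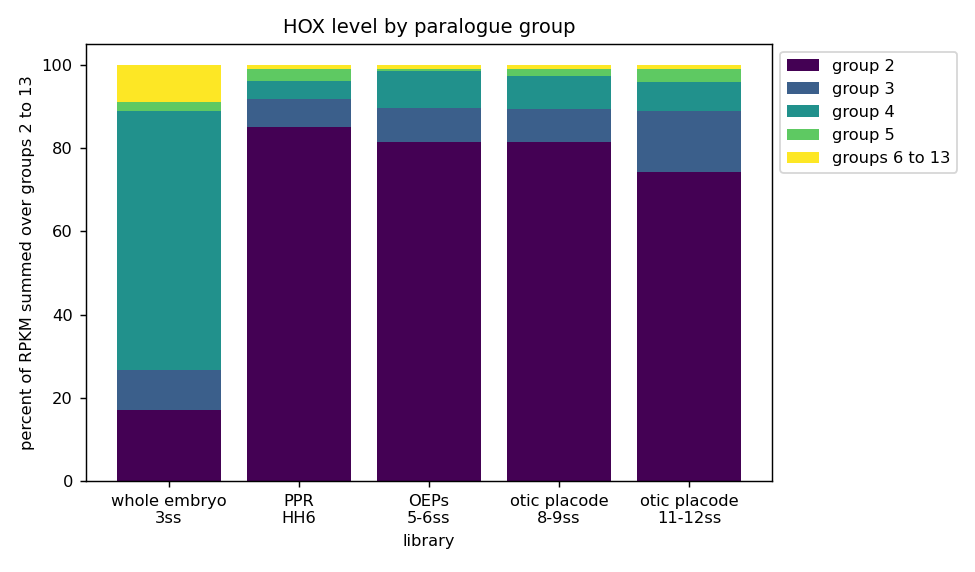
Percent of the RPKM summed over HOX loci (vertical axis) in paralogue groups 2, 3, 4, 5 and 6 to 13 for each of the 5 libraries (stacked bars). Group 2 makes up 74.3% to 84.96% of each ectoderm library and 17.2% of whole embryo, whose large group 4 part (62.1%) is mostly HOXB4.

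HOXA2, the gene that patterns the second pharyngeal arch and the anterior hindbrain, had the highest RPKM and the most counts of these loci in each ectoderm library. Its raw counts were 2758 in whole embryo, 528 in PPR, 457 in OEPs, 731 at 8-9ss and 952 at 11-12ss, with RPKM values of 84.2, 6.17, 20.9, 28.7 and 34.6. Normalized counts were 2721, 182, 829, 860 and 1272, so the lowest library was PPR and the highest otic library was the last. HOXB2, its paralogue of the B cluster and a hindbrain gene, was nearly confined to whole embryo. It had 914 counts there, 11 in PPR, 12 in OEPs, 13 at 8-9ss and 45 at 11-12ss, and its RPKM was 17.3, 0.0796, 0.509, 0.335 and 1.30.

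In group 3, whose members mark the caudal hindbrain and the arches behind it, HOXA3 was the leading gene of the otic libraries by counts. It had 1304 counts in whole embryo, 193 in PPR, 135 in OEPs, 228 at 8-9ss and 405 at 11-12ss, with RPKM values of 8.79, 0.377, 1.30, 1.43 and 3.07. HOXB3 had 3199 counts in whole embryo, 10 in PPR, 17 in OEPs, 61 at 8-9ss and 165 at 11-12ss, with RPKM values of 30.5, 0.0235, 0.615, 0.619 and 3.08. HOXD3 had 855, 11, 8, 44 and 42 counts in the same order, with RPKM values of 17.1, 0.0945, 0.207, 0.822 and 0.941. None of the 3 genes passed an RPKM of 4 in any otic library, and HOXA3 and HOXB3 had their highest otic value at 11-12ss.

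**Figure D3:**
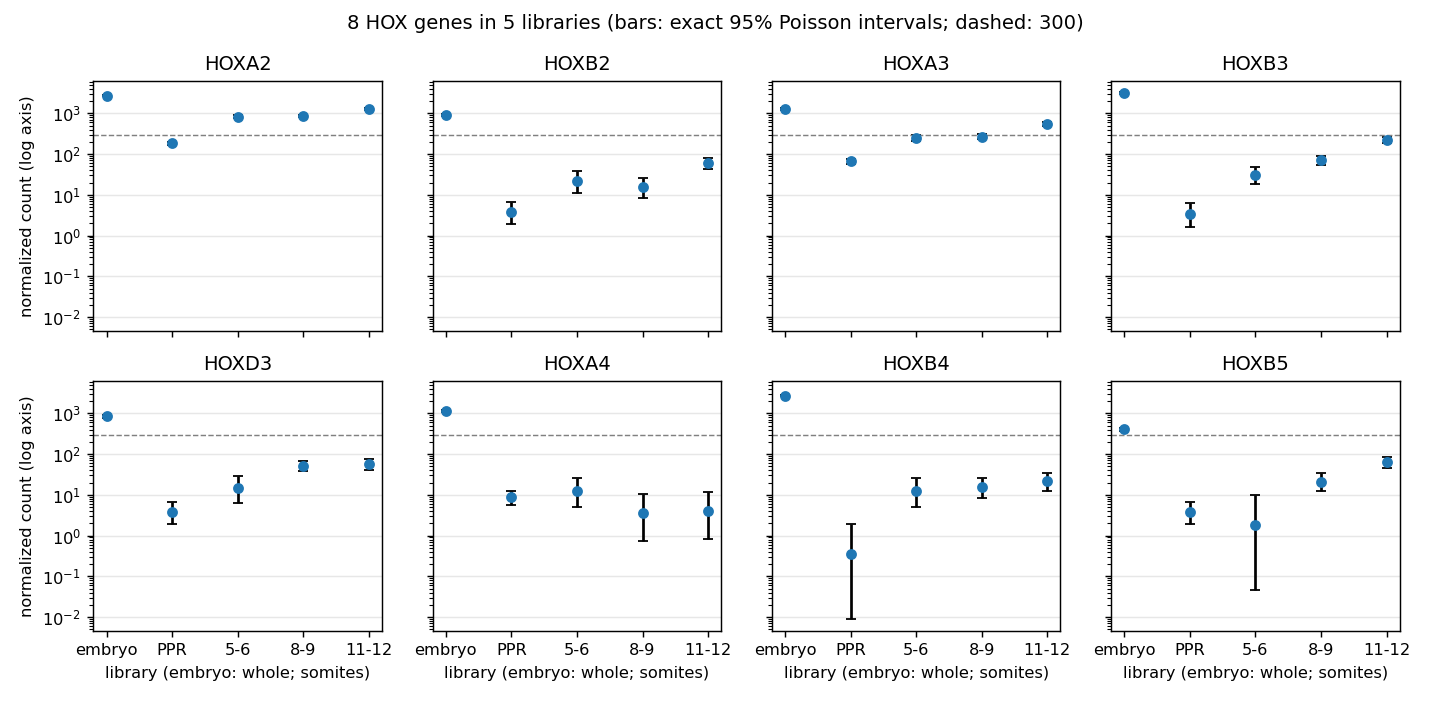
Normalized counts (vertical log axis) of 8 HOX genes in whole embryo, PPR and the otic libraries at 5-6, 8-9 and 11-12 somites; points are single libraries, bars are exact 95% Poisson intervals of the count and the dashed line marks 300. HOXA2 and HOXA3 are lowest in PPR (182 and 66.6) and highest of these 4 libraries at 11-12ss (1272 and 541).

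The genes of group 4, which have their anterior limit in the most caudal hindbrain, were plentiful in whole embryo and scarce in the ectoderm. HOXB4 had 2735 counts in whole embryo, 1 in PPR, 7 in OEPs, 13 at 8-9ss and 16 at 11-12ss, with RPKM values of 344, 0.0895, 1.88, 2.20 and 3.15. HOXA4 had 1165 counts in whole embryo, 25 in PPR, 7 in OEPs and 3 in each later placode library, with RPKM values of 16.7, 0.142, 0.160, 0.0239 and 0. Its second locus had 414, 6, 2, 3 and 3 counts and an RPKM of 0 throughout. HOXD4 had 385, 16, 13, 34 and 11 counts and RPKM values of 5.52, 0.102, 0.326, 0.588 and 0.210.

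Of group 5, both members with a locus were seen. HOXA5 had 658 counts in whole embryo, 23 in PPR, 0 in OEPs and 4 in each later placode library, with RPKM values of 4.54, 0.117, 0, 0.107 and 0. Its other two loci were identical to each other, with 383, 5, 0, 0 and 4 counts and an RPKM of 0. HOXB5 had 412 counts in whole embryo, 11 in PPR, 1 in OEPs, 18 at 8-9ss and 47 at 11-12ss, with RPKM values of 8.78, 0.0883, 0.0850, 0.488 and 1.43. HOXB5 thus had more counts than HOXB4 at 11-12ss, at a ratio of 2.94 (95% interval 1.64 to 5.55), whereas in whole embryo HOXB4 had 6.64 times (5.98 to 7.38) the counts of HOXB5. HOXB3 was drawn across both genes in RefSeq, so part of these low counts may be its reads. By RPKM HOXB5 stood below HOXB4 at 11-12ss, at a ratio of 0.454, so the order of the 2 genes there depends on the measure.

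Trunk groups 6 to 13 were close to the limit of detection outside whole embryo. HOXB-7, as the files spell the group 7 gene of the B cluster, had 1429 counts in whole embryo, 1 in PPR and 0 in the other three libraries, with RPKM values of 36.6, 0.0204, 0, 0 and 0. HOXA7 had 739, 6, 7, 1 and 0 counts and RPKM values of 6.79, 0.0315, 0.0490, 0.0310 and 0. HOXA6 was found with 271 counts in whole embryo and with 0 in each of the other four. HOXB9 had 108 counts and an RPKM of 4.35 in whole embryo, and 0 in every other library. Of the members that passed neither level, HOXA9 had 176 counts in whole embryo and 8 in PPR, HOXA13 had 59 and 8, and HOXB6, HOXD8 and HOXD9 had 19, 20 and 22 in whole embryo only. Added up, groups 6 and above held 2852 counts in whole embryo, 35 in PPR, 30 in OEPs, 21 at 8-9ss and 23 at 11-12ss.

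The few reads of groups 6 and above came from the A cluster for 16 and the C cluster for 14 of 30 counts in OEPs, and from the C cluster for 20 of 21 at 8-9ss and 23 of 23 at 11-12ss. HOXC9 had 5 counts in whole embryo, 0 in PPR, 9 in OEPs, 15 at 8-9ss and 16 at 11-12ss. HOXC11 had 0, 0, 5, 5 and 7 counts. HOXA11 had 3, 12, 9, 0 and 0. The HOXC9 normalized count at 11-12ss was 4.27-fold (1.49 to 14.9) that of whole embryo, and with an RPKM of 0.446 it is far under the level called expressed. HOXA10, HOXC6, HOXC10, HOXC12, HOXD11, HOXD12, HOXB13 and HOXD13 had no count in any library, and HOXD10 had 1, in whole embryo.

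The first 4 comparisons set PPR, OEPs, thickened placode and invaginating placode each against whole embryo, and share that library. A call required normalized counts, scaled on the 2 libraries compared, to differ over 1.5-fold and the higher library to exceed an RPKM of 4 and a normalized count of 300. Lower calls were made for 12 HOX loci in PPR, where 12.9% of all expressed loci were lower, for 11 in OEPs (background 10.2%), for 12 at 8-9ss (13.1%) and for 12 at 11-12ss (12.8%). The higher calls numbered 0 in each, against backgrounds of 15.7%, 13.9%, 15.0% and 14.7%. Of these called loci, 11 in PPR, 10 in OEPs, 11 at 8-9ss and 11 at 11-12ss passed the levels in whole embryo alone and so had to come out lower. HOXA2 alone passed in both libraries of each comparison, in PPR narrowly, at 313 normalized counts on the scaling of that pair. In OEPs HOXD4 fell just under the level of 300 in whole embryo (285 normalized counts) and HOXB5 just over it (305).

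HOXA2 was 14.9-fold lower than whole embryo in PPR (13.6 to 16.4), 3.30-fold in OEPs (2.99 to 3.65) and 3.17-fold at 8-9ss (2.93 to 3.45). At 11-12ss it was 2.17-fold lower (2.02 to 2.34). HOXA3 was 19.3-fold lower in PPR (16.6 to 22.5) and 2.41-fold lower at 11-12ss (2.16 to 2.71). The distance from whole embryo was therefore smaller at 11-12ss than in PPR for both genes.

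In groups 2 and 3 the B and D cluster genes lay further below whole embryo than HOXA2 and HOXA3 did. HOXB2 was 237-fold lower in PPR (132 to 476), 41.7-fold in OEPs (23.7 to 80.9) and 15.2-fold at 11-12ss (11.3 to 21.0). HOXB3 was 912-fold lower in PPR (495 to 1904), 103-fold in OEPs (64.2 to 177) and 44.1-fold at 8-9ss (34.3 to 57.8). The gap left at 11-12ss was 14.5-fold (12.4 to 17.1). By RPKM the OEP value of HOXB3 was 49.7-fold lower, so its distance depends on the measure. HOXD3 was 222-fold lower in PPR (123 to 446) and 15.3-fold lower at 11-12ss (11.2 to 21.3).

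HOXB4 was 7797-fold lower in PPR, where it had a single count (95% interval 1398 to 308100), and 128-fold lower at 11-12ss (78.8 to 225). HOXA4 was 133-fold lower in PPR (89.5 to 206) and 291-fold lower at 11-12ss (99.4 to 1414). HOXA5 was 81.6-fold lower in PPR (53.9 to 130) by counts but 38.7-fold by RPKM, and 123-fold lower at 11-12ss (47.9 to 454). HOXB-7 was 4074-fold lower in PPR (730.0 to 161000), again from 1 count. With 0 counts it was at least 260.5-fold lower in OEPs, 401-fold at 8-9ss and 357-fold at 11-12ss, against a floor of 3 counts in each library. HOXB5 and HOXD4 stood nearer to whole embryo, at 6.57-fold (4.85 to 9.09) and 26.2-fold lower (14.5 to 53.0) at 11-12ss.

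**Figure D4:**
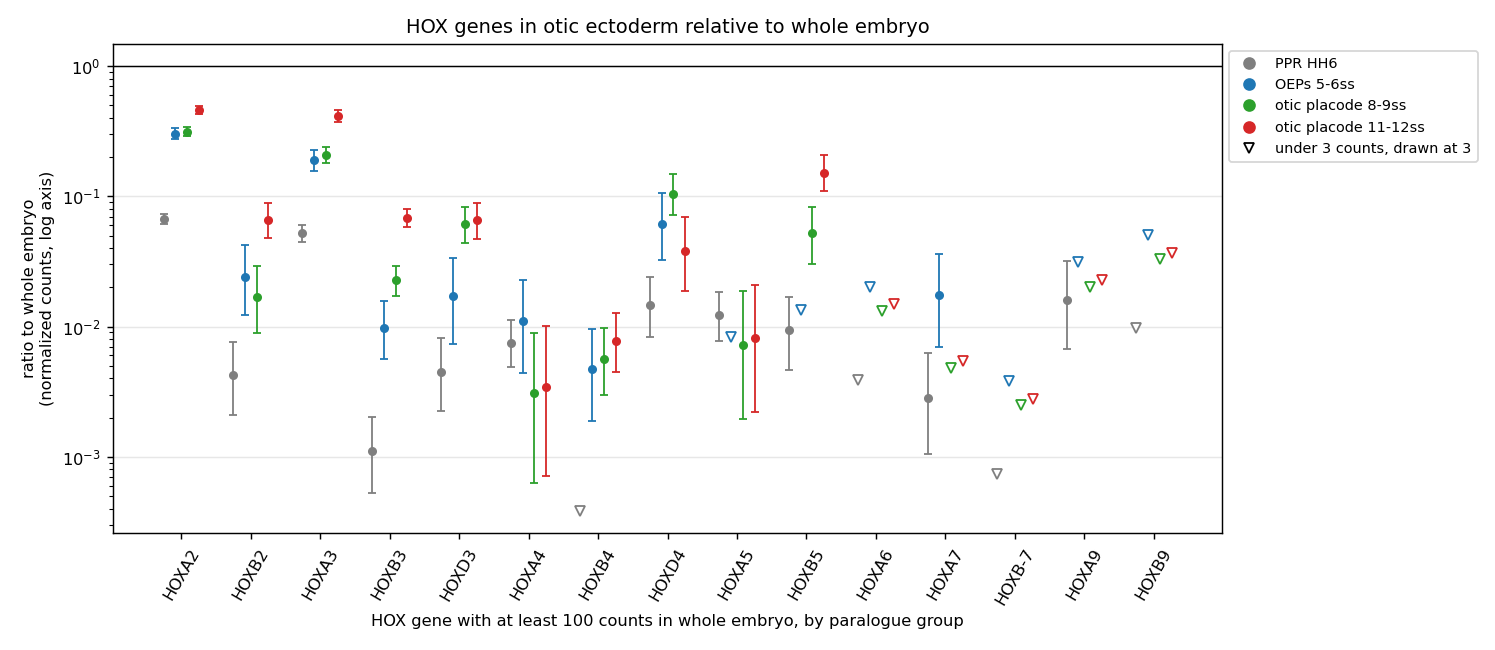
Ratio of each ectoderm library to whole embryo in normalized counts (vertical log axis, 1 marked by a line) for the HOX genes with at least 100 counts in whole embryo, ordered by paralogue group; circles carry exact 95% binomial intervals and open triangles mark fewer than 3 counts and are drawn at the floor of 3. HOXA2 and HOXA3 lie nearest to 1 (at 11-12ss they are 2.17-fold and 2.41-fold lower), and in PPR HOXB4 and HOXB-7, with 1 count each, lie farthest below.

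Over the HOX loci whose normalized counts averaged 10 or more, the median log2 fold change against whole embryo was -6.90 in PPR (30 loci), -5.38 in OEPs (27), -5.63 at 8-9ss (29) and -5.11 at 11-12ss (28). Of these loci, 26, 21, 20 and 19 were under 10 normalized counts in the ectoderm library and passed through whole embryo, so they had to come out lower, and the medians support nothing on their own. The median of all loci under the same filter lay between -0.01 and 0 in each. With 1 locus per symbol the HOX medians were -6.68, -5.74, -5.19 and -4.71, a setting chosen after the data were seen. Loci with under 3 counts in the otic library enter these medians at their bound. In bulk RNA, fewer HOX-expressing cells and less HOX RNA in each cell cannot be told apart.

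Between PPR and OEPs, the step in which ectoderm of mixed placodal potential becomes otic and epibranchial, HOXA2 was the 1 HOX locus tested and was called higher, where 18.0% of expressed loci were higher and 18.9% lower. It passed the levels in OEPs alone, so the call could only come out higher. It was 4.52-fold higher in OEPs (3.98 to 5.13) by counts and 3.38-fold by RPKM.

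Members under the thresholds had the following values in the same step. HOXA3 was 3.65-fold higher in OEPs (2.91 to 4.57), HOXB2 5.70-fold (2.30 to 14.2) and HOXB3 8.88-fold (3.84 to 21.7), the last from 17 against 10 counts in libraries of very unequal depth. By RPKM the HOXB3 value was 26.2-fold. HOXA5 ran the other way, with 23 counts in PPR and 0 in OEPs, at least 1.47-fold lower against a floor of 3 counts, and HOXB5 had 11 and 1 counts. The 9 HOX loci averaging 10 or more normalized counts had a median log2 fold change of 2.08, but 6 of them were under 10 in PPR and passed through OEPs, and HOXA5, HOXB5, HOXA9 and HOXA13 did not pass, so no direction of the whole set is read from it.

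From OEPs to the thickened placode no HOX locus was called, where 4.99% of expressed loci were lower and 3.89% higher. HOXA2, the only locus tested, had a ratio of 1.05 (0.931 to 1.18) by counts and 1.37 by RPKM. HOXA3 had a ratio of 1.11 (0.890 to 1.38), HOXB3 of 2.35 (1.36 to 4.29) by counts but 1.01 by RPKM, and HOXD3 of 3.60 (1.68 to 8.86). The median log2 fold change of 7 loci was 0.15.

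From the thickened to the invaginating placode no HOX locus was called higher or lower, where 6.54% and 3.63% of expressed loci were. No replicated test was run in this comparison, and HOXA2 was the only locus above the thresholds. It had a ratio of 1.47 (1.33 to 1.62) by counts, just short of the 1.5-fold needed, and of 1.21 by RPKM. Below the thresholds, the ratio at 11-12ss over 8-9ss was 2.0 for HOXA3 (1.70 to 2.37), 3.90 for HOXB2 (2.07 to 7.88), 3.05 for HOXB3 (2.26 to 4.16) and 2.94 for HOXB5 (1.68 to 5.38). By RPKM the HOXB3 ratio was 4.97. HOXD3 had a ratio of 1.08 (0.688 to 1.68) and HOXD4 of 0.365 (0.167 to 0.737) by counts. The median log2 fold change of 9 loci was 0.55.

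Ratios of 2 HOX genes within 1 library do not depend on the scaling between libraries. Counts of HOXA3 per count of HOXA2 were 0.366 in PPR (0.308 to 0.432), 0.295 in OEPs (0.242 to 0.359), 0.312 at 8-9ss (0.268 to 0.362) and 0.425 at 11-12ss (0.378 to 0.478), against 0.473 in whole embryo (0.442 to 0.505). The interval at 11-12ss lies above those of OEPs and 8-9ss, and overlaps those of PPR and whole embryo.

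In groups 2 and 3 the A cluster gene had more counts than its B cluster paralogue in each ectoderm library. In groups 4 and 5 the B cluster gene had more at the later stages, with 13 and 16 counts of HOXB4 against 3 and 3 of HOXA4, and 18 and 47 of HOXB5 against 4 and 4 of HOXA5, at 8-9ss and 11-12ss. HOXB3 had 2.45 counts per count of HOXA3 in whole embryo (2.30 to 2.62), but 0.0518 in PPR (0.0245 to 0.0974), 0.126 in OEPs (0.0713 to 0.209), 0.268 at 8-9ss (0.198 to 0.356) and 0.407 at 11-12ss (0.338 to 0.489). By RPKM that ratio reached 1.0 at 11-12ss, from 3.47 in whole embryo and 0.0622 in PPR. HOXB2 per HOXA2 was 0.331 in whole embryo (0.307 to 0.357) and between 0.0178 and 0.0473 in the ectoderm libraries. HOXD3 per HOXA3 was 0.656 in whole embryo (0.601 to 0.715), 0.0570 in PPR (0.0280 to 0.104), 0.0593 in OEPs (0.0251 to 0.120), 0.193 at 8-9ss (0.136 to 0.267) and 0.104 at 11-12ss (0.0736 to 0.143). Each of these ratios of B or D to A cluster genes was thus lower in each ectoderm library than in whole embryo, with no overlap of its intervals with that of whole embryo.

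**Figure D5:**
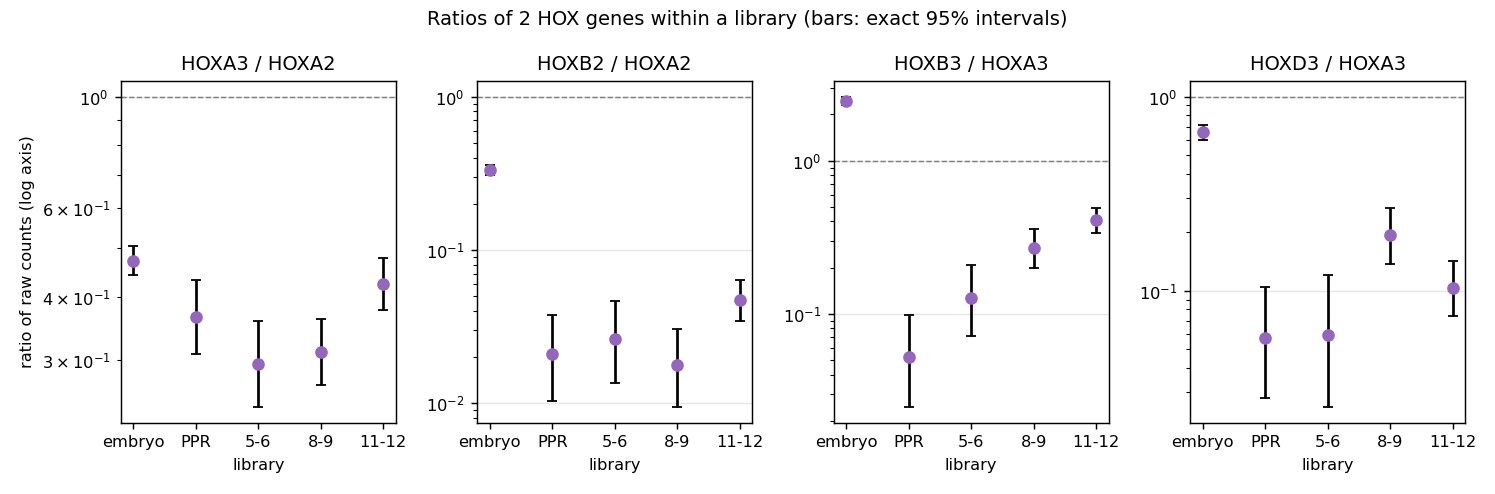
Ratios of raw counts of 2 HOX genes within a library (vertical log axes, which differ between panels) in whole embryo, PPR and the otic libraries at 5-6, 8-9 and 11-12 somites, with exact 95% binomial intervals. HOXA3 over HOXA2 stays between 0.295 and 0.473 in all 5, whereas HOXB3 over HOXA3 is 2.45 in whole embryo and at most 0.407 in the ectoderm.

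Markers of other tissues moved over the same libraries as the late values of HOXA3, HOXB2, HOXB3 and HOXB5. DBX1, a neural tube gene, had 0 counts in OEPs, 13 at 8-9ss and 107 at 11-12ss, but ZIC1, which marks dorsal neural tissue, had 6, 4 and 3. SOX2, a neural gene that placodes also express, had 355.5, 1351 and 1591 normalized counts, and OLIG2 had 0, 9 and 43 counts. All 8 hindbrain and neural markers with a locus summed to 9990, 10240 and 8445 normalized counts at these stages, mostly LFNG, and the 7 without LFNG summed to 1213, 2045 and 2461. Of the 8, 5, 6 and 7 had at least 10 counts. PAX1, TCF15 and TBX18 of the paraxial mesoderm list had 42, 12 and 22 counts in OEPs, 47, 92 and 51 at 8-9ss and 367, 130 and 211 at 11-12ss. That list summed to 1714, 1861 and 2459 over its 9 genes, with MSGN1 at 4, 0 and 0 and UNCX at 0 throughout. PRRX1, a mesenchyme gene, had 52, 78 and 555 counts, and its list of 9 lateral mesoderm genes summed to 1199, 624 and 1866. The blood and vessel list of 7 genes summed to 3339, 2918 and 4977. The part of other tissues in the late HOX values was not tested.

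HOX cofactors were present in every library. Of 9 cofactor genes listed, 5 have a locus. MEIS1 and MEIS2 were called higher in OEPs than in PPR, at 2.26-fold (2.12 to 2.41) and 2.82-fold (2.70 to 2.95), and PBX3 and PKNOX1 were called lower, so 2 of 5 changed each way, where 18.0% of expressed loci were higher and 18.9% lower. MEIS2 had RPKM values of 26.5 in whole embryo, 9.73 in PPR, 29.4 in OEPs, 39.1 at 8-9ss and 40.4 at 11-12ss. MEIS1 had RPKM values of 74.9, 17.5, 44.8, 42.9 and 40.9. PBX4 stayed between 21.6 and 26.0. At 8-9ss none of the 3 tested was called against OEPs. At 11-12ss PBX3 and PKNOX1 were called higher than at 8-9ss and 0 lower, out of 5 tested (background 6.54% and 3.63%). Against whole embryo, 0 of 5 tested were called higher in any ectoderm library (background 13.9% to 15.7%). MEIS1 and MEIS2 were lower in PPR, and PBX3, MEIS1 and PKNOX1 were lower in each otic library (10.2% to 13.1%).

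The regulators upstream of HOX genes divided along retinoic acid supply and breakdown. ALDH1A2, which makes retinoic acid, was called lower than whole embryo in all 4 ectoderm libraries, at 92.7-fold in PPR (84.9 to 101) and 43.3-fold in OEPs (37.8 to 49.8). CYP26A1 and CYP26C1 break retinoic acid down. CYP26A1 was 2.39-fold higher in PPR than in whole embryo (2.32 to 2.46), then fell 13.7-fold from PPR to OEPs (12.5 to 15.0), with RPKM values of 99.5 and 8.00. CYP26C1 had RPKM values between 71.0 and 93.0 and was called in none of the 7 comparisons. The caudal genes CDX2 and CDX4, which activate trunk HOX genes, had 3064 and 6653 counts in whole embryo and at most 94 and 51 in the ectoderm. From whole embryo to 11-12ss CDX2 had RPKM values of 898, 5.545, 69.9, 70.9 and 15.1, high for its counts. CDX4 had 61.7, 0.0716, 0.8, 0 and 0. NR6A1, a nuclear receptor, was 1.76-fold lower than whole embryo at 8-9ss. Of 13 upstream genes with a locus, 11 were tested in PPR against whole embryo, and 6 were lower (background 12.9%) and 1 was higher (15.7%). Between PPR and OEPs FGF8 was higher and CYP26A1 lower, out of 6 tested (18.0% and 18.9%).

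Of 10 Polycomb and Trithorax genes with a locus, chromatin regulators of the HOX clusters, 9 were tested in each comparison and between 0 and 3 were called. Between PPR and OEPs 2 were called higher (background 18.0%) and 1 lower (18.9%). CBX8, of the Polycomb complexes, was 2.90-fold higher in OEPs (2.55 to 3.30), and CBX2 was 1.55-fold higher (1.49 to 1.62) by counts but 1.02-fold by RPKM. CBX2 and EZH2, of the Polycomb complexes, had RPKM values of 40.6 to 47.4 and 29.7 to 40.0, and BMI1 of 24.2 to 36.0. KMT2A, which writes the active H3K4 mark at HOX genes, was 2.91-fold lower in OEPs than in PPR (2.71 to 3.12) by counts, while its RPKM was 10.9 and 9.47.

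Of the genes of anterior head identity, 4 were called lower and 0 higher between PPR and OEPs, out of 4 tested and 11 with a locus (background 18.9% and 18.0%). OTX2, a forebrain and midbrain factor, had 30752 counts in PPR, 1163 in OEPs, 292 at 8-9ss and 378 at 11-12ss. It was 5.06-fold lower in OEPs than in PPR (4.78 to 5.37) and a further 6.08-fold lower at 8-9ss (5.35 to 6.94). OTX1, HESX1 and DMBX1 were also called lower in OEPs. SIX6 of the same list ran the other way, with 7 counts in PPR, 31 in OEPs, 337 at 8-9ss and 280 at 11-12ss, and was called higher than in whole embryo at the last 2 stages. In PPR against whole embryo, OTX2 and DMBX1 were called higher and 0 genes lower, out of 4 tested (background 15.7% and 12.9%). GBX2, which opposes OTX2 at the midbrain-hindbrain border, was 21.7-fold higher in OEPs than in PPR (20.7 to 22.7) by counts and 12.3-fold by RPKM. IRX1, IRX4 and IRX5 were also called higher and IRX2 lower, out of 5 tested posterior ectoderm genes of 9 with a locus. In PPR against whole embryo 6 of these were tested. IRX1 and IRX2 were called higher (15.7%), and GBX2, IRX5, NKX6-2 and TSHZ1 lower (12.9%). IRX4 was called higher at 11-12ss against 8-9ss, with a ratio of 2.09 (1.90 to 2.31) by counts, but its RPKM of 1213 at 8-9ss stands far from its 105 at 11-12ss.

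Genes beside the clusters were examined for the same contrast with whole embryo. EVX1, a homeobox gene at the posterior end of the A cluster, had 7476 counts in whole embryo and 32, 11, 10 and 0 from PPR to 11-12ss. SKAP2, a gene flanking the A cluster, was called lower in all 4 ectoderm libraries, between 2.85-fold in PPR (2.77 to 2.93) and 5.06-fold at 11-12ss (4.79 to 5.35) by counts. By RPKM the order turned, with PPR farthest, at 7.09-fold, and 8-9ss nearest, at 3.95-fold. SKAP1, which RefSeq places next to HOXB1, had 483, 200, 11, 0 and 2 counts. MTX2, beside the D cluster, was called in no comparison, with RPKM values of 66.7 to 96.4. SMUG1, beside the C cluster, was called lower in PPR alone, at 2.25-fold (2.12 to 2.38). Of 11 flanking genes with a locus, 9 were tested in each comparison with whole embryo. In PPR 4 were lower (background 12.9%) and 0 higher (15.7%), in OEPs 3 (10.2%) and 0 (13.9%), at 8-9ss 3 (13.1%) and 1 (15.0%), and at 11-12ss 4 (12.8%) and 2 (14.7%).

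The remaining marker lists are given for whole embryo and the ectoderm libraries, in raw counts unless another measure is named. The mesoderm and midline genes T and CHRD had 27924 and 23668 counts in whole embryo and at most 811 in any ectoderm library. FOXC2 had 2315 counts in whole embryo and 860 to 1367 in the ectoderm, HAND1 had 1426 and 10 to 324, FOXF1 had 640 and 56 to 287, and NKX2-5 had 536 and 256 to 727. TTR had 409 normalized counts in whole embryo, 15.9 in PPR, 676.5 in OEPs, 21.2 at 8-9ss and 10.7 at 11-12ss, and was called higher in OEPs than in whole embryo and in PPR. KDR had 5089 counts and 251 to 830, LMO2 had 2156 and 244 to 1599, and GATA2, which surface ectoderm also expresses, had 5135 and 460 to 27310. In normalized counts some of these genes were not below whole embryo in every ectoderm library. At 11-12ss LMO2 had 2136 against 2127 in whole embryo, and NKX2-5 had 663 against 529. FOXC2 had 1493 to 1608 from OEPs on, against 2284. KDR and HAND1 were lower throughout, at most 1109 and 287 against 5020 and 1407. In the neural crest list SNAI2 had 4043 counts in whole embryo and 764 to 1922 in the ectoderm, SOX9 had 1070 and 727 to 1944, and SOX10, which the otic placode shares with crest, had 41 and 329 to 12025. LFNG, ZIC2 and SOX2 of the neural list had 3748, 3320 and 1628 counts in whole embryo and 4839, 220 and 196 in OEPs. The placode genes TFAP2A, SOX8 and FOXI2 had RPKM values of 52.2, 6.58 and 25.1 in whole embryo and 261, 180 and 206 in OEPs.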

How the data were processed

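RNA-seq libraries of 5 conditions were analysed, 1 each. Per the methods, the authors aligned reads with TopHat2 2.0.7 to galGal4, assembled and merged loci with Cufflinks 2.1.1 and counted reads with easyRNAseq 2.1.0, and these counts were deposited without normalization. The deposited RPKM values came from Cuffdiff 2.1.1. The library kit does not keep the strand, and the strand setting used in counting is not given in the sources used here. The per-sample columns left unmapped numbered 0.

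HOX loci were found by symbol. The result for 1 of them, and for a few list genes, is not reported here, and they were left out of the sums. The members, the 13 gene lists and the tests were chosen with earlier results of these data known. HOX genes with RPKM over 4 or a normalized count over 300 in any library are named with all values. Of each list, the 3 genes of highest mean RPKM are named, with CYP26A1, CYP26C1, ALDH1A2, GBX2, OTX2, MEIS2 and any gene a statement turns on. Symbols without a locus, such as EGR2, were not analysed here. The files give no positions, so loci lying between HOX genes were not counted.

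Counts were scaled by median-of-ratios size factors of the libraries compared (Python 3.11.15, scipy 1.17.1). Counts under 3 were raised to 3 for calls and medians. A fold change is then a bound at 0 counts, and at 1 count the ratio is given with its interval. Fold changes carry 95% Clopper-Pearson intervals, and levels carry exact Poisson intervals. RefSeq (GRCg7b) was used for names and neighbours alone. The calls and intervals were tested on simulated data. The alternatives were 5-library size factors, TMM (edgeR 4.0.16), total counts, RPKM ratios, other thresholds, thinning to 26858887 counts and, added after the data were seen, 1 locus per symbol.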

Additional observations from a re-analysis of the deposited data

How the results depend on the processing

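Alternative fold changes of named HOX genes were computed where both libraries had at least 3 counts, which leaves out HOXB-7 and other low values. For the other HOX genes called in any comparison, all 256 fold changes under the other scalings kept their direction. Size factors over all libraries, TMM and total counts shift every fold change of a comparison by 1 common factor, at most 1.064 here. These settings could therefore hardly turn a direction, and only the RPKM ratios tested it. RPKM ratios moved 12 of the 256 by over 1.5 times, for HOXA4, HOXA5, HOXA7, HOXB3 and HOXD3. The HOXB3 ratio of 8-9ss to OEPs fell from 2.35 by counts to 1.008 by RPKM, which still counts as kept. Without any expression threshold, lower calls against whole embryo numbered 31 in PPR and 30 in each otic library, and higher calls 3 in OEPs and 2 at each later stage. In the same setting OEPs against PPR gave 13 higher calls, 8-9ss against OEPs 4 higher and 6 lower, and 11-12ss against 8-9ss 7 higher and 1 lower. Without the RPKM threshold alone, PPR had 20 lower calls against whole embryo, OEPs had 2 higher calls against PPR, and 11-12ss had 1 higher call against 8-9ss, as it had with total counts. The shares of all loci called in these settings are not given here, so these counts alone are not read as a result on HOX genes. The median log2 fold change against whole embryo was -5.60 in PPR with thinned counts, and at 11-12ss -3.31 by RPKM and -6.05 with a minimum mean count of 100. The share of groups 2 and 3 by normalized counts or CPM over all loci, copies added up, was 46.1% in whole embryo, 83.5% in PPR, 91.8% at 8-9ss and 93.3% at 11-12ss. With raw counts of 1 locus per symbol, added after the data were seen, these were 52.4%, 87.15%, 92.05% and 93.9%. Without HOXB4, the locus of highest summed RPKM, it was 64.2%, 96.5% (OEPs), 95.4% (8-9ss) and 95.2% (11-12ss). The weighted mean paralogue group, from whole embryo to 11-12ss, was 4.12, 3.05, 2.71, 2.56 and 2.60 by counts of all loci on either scale, 3.86, 2.80, 2.64, 2.56 and 2.58 with 1 locus per symbol, and 3.70, 2.28, 2.22, 2.25 and 2.35 without HOXB4. No paired analysis was possible because each condition has 1 library. Depth limits groups 6 and above, where 1 library differs from another by a few reads, and the lack of replicates leaves the spread between embryos unmeasured.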

Other observations

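Some loci outside the symbol rule lie in HOX gene families by name. A locus listed only by a RefSeq accession, which the RefSeq table pairs with HOXB8, had 68 counts in whole embryo, 0 in PPR, 0 in OEPs, 2 at 8-9ss and 0 at 11-12ss. A second locus that carries the HOXA3 name together with an accession had 699, 120, 85, 145 and 242 counts and an RPKM of 0 in all, a course like that of the HOXA3 locus at lower counts. HOTAIRM1_2, a conserved region of the long noncoding RNA of the A cluster, had 196, 16, 17, 6 and 5 counts with RPKM values of 142, 2.81, 26.0, 6.98 and 3.35. Of the 13 loci named for HOX antisense and noncoding RNAs, the other 12 had no count. All 7 loci of mir-10a, mir-10b and mir-196 had 0 counts, in libraries of polyA RNA.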
